A study of Mus musculus with 15 samples.

Results

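The RNA counted on the mitochondrial genome was examined in A20 cells, a B-cell lymphoma line from the BALB/c mouse strain. Every gene that the count tables place on the mitochondrial chromosome was taken, which gave 37 genes of the 41388 in the tables, all with symbols starting with mt-. They were 13 genes for messenger RNA (mRNA), 2 for ribosomal RNA (rRNA) and 22 for transfer RNA (tRNA). The A20 parental line (WT) was compared with 4 lines edited by CRISPR in Foxp1, which encodes a forkhead transcription factor: exon 6 was targeted in E6.1 and E6.2, exon 7 in E7.1 and E7.2. Each edited line was grown from a single sorted cell and is 1 clone, so an effect of the edit and a property of that clone cannot be told apart. All 5 lines were grown under standard culture conditions with no treatment named, and each gave 3 libraries of total RNA from separate passages, 15 in all. Library preparation was described only as standard, so whether polyadenylated RNA was selected or rRNA removed is not given in the sources used here.

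The mitochondrial genome is a small circular DNA that every mitochondrion carries in several copies. Both of its strands are transcribed into long precursor RNAs, which are cut, mostly at the tRNA genes that lie between the other genes, into single mRNAs, rRNAs and tRNAs, and most of the mRNAs then receive a poly(A) tail. Its mRNAs encode core subunits of respiratory complexes I, III and IV and of the ATP synthase, which join subunits made from nuclear genes, and its rRNAs form the mitochondrial ribosome. Old insertions of mitochondrial DNA in nuclear chromosomes can carry the same sequence as the mitochondrial genes themselves.

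The libraries held between 26328054 and 39181530 counts, with a median of 35586010. Foxp1 itself lay at 102 to 166 CPM (counts scaled to the total of each library after TMM normalization, so that CPM and the percentages of raw counts below have different denominators) in the parental line, 99.5 to 109 CPM in the E6 clones and 37.1 to 64.3 in the E7 clones. All 7 B-lineage markers were detected in every library and summed to between 2902 and 4476 CPM, whereas 5 of 6 T-cell markers had 3 counts or fewer in every library and Cd3e was at 0. Summed levels were 0.150 to 0.607 CPM for the T-cell markers, 0.421 to 8.10 for 5 myeloid markers and 0.0301 to 1.34 for 5 fibroblast and endothelial markers. Several libraries stood apart from their replicates in the mitochondrial counts. Parental replicate 1, E6.1 replicates 1 and 3, and E6.2 replicates 1 and 3 were low on a run of neighbouring genes, and parental replicate 1 and E6.2 replicate 1 were also high in mitochondrial rRNA. Their values are given beside each result they touch.

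Mitochondrial genes took between 0.848% and 10.4% of all counts in a library. In the parental line the share was 3.58%, 2.82% and 3.99% (mean 3.47% ± 0.593, SD, n = 3). It was 0.848%, 4.01% and 3.23% in E6.1 and 7.28%, 4.09% and 2.35% in E6.2. The E7.1 libraries gave 4.18%, 1.90% and 3.29%, and the E7.2 libraries 5.82%, 2.98% and 10.4%. Every clone overlapped the parental line, and replicates of 1 clone lay up to 4.73-fold apart (E6.1), against 1.41-fold in the parental line. The clone means were 2.69% ± 1.65 for E6.1, 4.57% ± 2.50 for E6.2, 3.12% ± 1.15 for E7.1 and 6.39% ± 3.72 for E7.2 (SD, n = 3 each), and each lay within its own SD of the parental mean. In RNA from whole cultures, fewer mitochondria per cell and less RNA in each cannot be told apart.

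**Figure D1:**
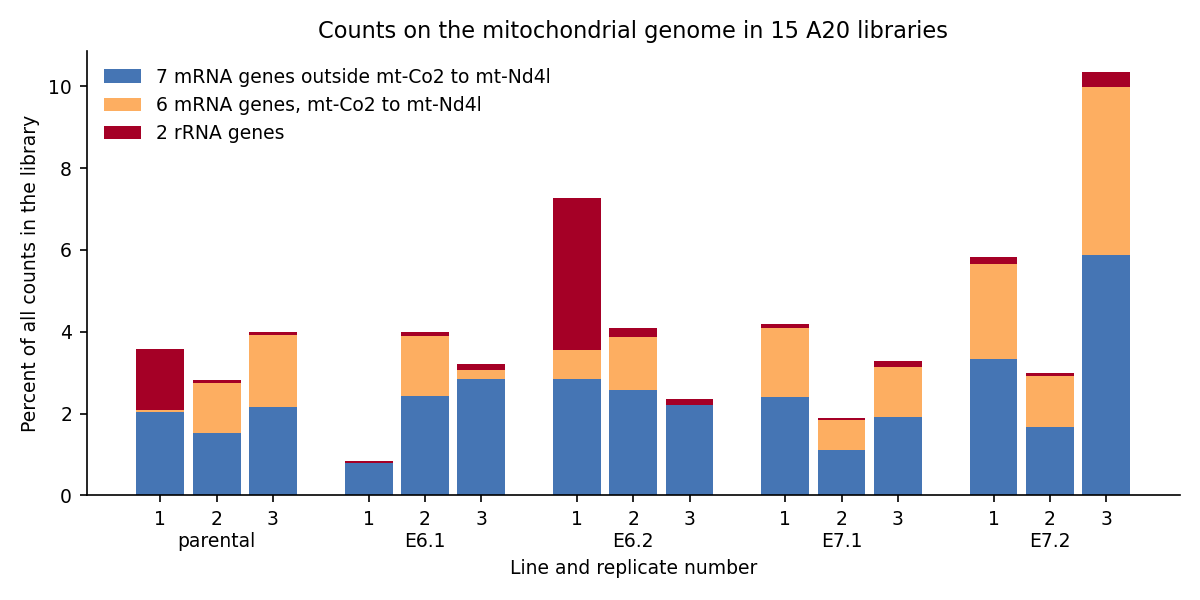
Counts on mitochondrial mRNA and rRNA genes as a percent of all counts (y axis) in each of the 15 libraries (x axis, by line and replicate). Stacked bars separate the 2 rRNA genes, the 6 mRNA genes from mt-Co2 to mt-Nd4l and the other 7 mRNA genes; the rRNA part is large in parental replicate 1 and E6.2 replicate 1, and the 6-gene part is nearly gone in parental replicate 1, E6.1 replicate 1 and E6.2 replicate 3.

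The 2 features that set these libraries apart were largest in parts of the genome, though mt-Nd4, outside the run, was also lower relative to mt-Cytb in the low libraries. The share was therefore also taken over the 7 mRNA genes outside the run of neighbours (mt-Nd1, mt-Nd2, mt-Co1, mt-Nd4, mt-Nd5, mt-Nd6 and mt-Cytb). It was 2.05%, 1.51% and 2.16% in the parental line (1.91% ± 0.345, SD, n = 3) and 2.85%, 2.57% and 2.20% in E6.2 (2.54% ± 0.324, SD, n = 3). The E6.2 values lay above all parental values, but only with mt-Co1 included. Without mt-Co1, chosen for removal after its values were seen, the remaining 6 genes took 1.23%, 0.841% and 1.10% in the parental line and 1.62%, 1.52% and 0.723% in E6.2, where replicate 3 lay below every parental library. The other 3 clones overlapped the parental line, at 0.784%, 2.44% and 2.84% in E6.1, 2.40%, 1.12% and 1.90% in E7.1, and 3.34%, 1.68% and 5.87% in E7.2. With 3 libraries against 3, an exact two-sided permutation test cannot give a p below 0.1, and none is given for a share.

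Per length, as TPM (counts divided by the gene lengths of the tables and then scaled to the library), mt-Atp6, a subunit of the membrane part of the ATP synthase, had the largest median over the 15 libraries (17400 TPM). It was followed by mt-Co1, the catalytic subunit of complex IV (14462 TPM), and by mt-Atp8, the other mitochondrially encoded ATP synthase subunit (14166 TPM). The complex IV subunits mt-Co3 and mt-Co2 were at 9546 and 9084 TPM. Of the complex I subunits, mt-Nd1 was at 9044 TPM, mt-Nd2 at 4473, mt-Nd3 at 3748, mt-Nd4 at 3159, mt-Nd6 at 1942, mt-Nd4l at 1919 and mt-Nd5 at 1663. mt-Cytb, the only complex III subunit that the mitochondrial genome encodes, was at 7554 TPM. The rRNA genes mt-Rnr1 and mt-Rnr2, for the small and the large ribosomal subunit, were at 1285 and 1250 TPM. Neighbours in this order cannot be separated, since the ranges of mt-Atp6 (19.2 to 45669 TPM), mt-Co1 (4613 to 44577) and mt-Nd5 (623 to 2403) over the libraries are wide and overlap those of the genes next to them.

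The 6 mRNA genes from mt-Co2 to mt-Nd4l lie side by side and were low together in some libraries. They took 1.35%, 45.1% and 44.8% of the mitochondrial mRNA counts in the parental libraries. In E6.1 they took 1.73%, 37.3% and 7.30%, and in E6.2 19.7%, 33.4% and 0.262%. All 6 libraries of the E7 clones were alike, with 41.4%, 39.1% and 39.3% in E7.1 (39.9% ± 1.27, SD, n = 3) and 41.0%, 42.5% and 41.3% in E7.2 (41.6% ± 0.824, SD, n = 3). The parental line and both E6 clones were thus split between libraries with a small and a large part on these genes, and the E7 clones were not.

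mt-Co3 shows the size of the difference. Its level was 17.1, 3156 and 4511 CPM in the parental line, 3.81, 3149 and 445 in E6.1 and 1045, 2763 and 6.29 in E6.2. It was 3913, 1917 and 3150 CPM in E7.1 and 5295, 2841 and 12309 in E7.2. The lowest values lie in parental replicate 1, E6.1 replicate 1 and E6.2 replicate 3, and those of E6.1 replicate 3 and E6.2 replicate 1 lie in between. mt-Atp6 had 664 counts in parental replicate 1, 154 in E6.1 replicate 1 and 366 in E6.2 replicate 3, against 93873 to 636376 in the 10 libraries outside these 5. mt-Nd4l, a small complex I subunit, came down to 4 counts in E6.1 replicate 1 and 10 in E6.2 replicate 3, and mt-Nd3, another complex I subunit, to 19 and 13 counts.

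To set these levels apart from the total of each library, counts were expressed per 100 counts on mt-Cytb. In the 10 other libraries mt-Co2 lay at 52.5 to 120, mt-Atp6 at 108 to 216 and mt-Co3 at 57.4 to 130 per 100 mt-Cytb counts. The median library exceeded the lowest 316-fold for mt-Co2, 516-fold for mt-Atp8, 423-fold for mt-Atp6, 414-fold for mt-Co3, 854-fold for mt-Nd3 and 909-fold for mt-Nd4l. For the genes on either side this ratio was between 1.16 and 2.00, at 1.45 for mt-Co1, 1.98 for mt-Nd1, 1.42 for mt-Nd2, 1.16 for both mt-Nd5 and mt-Nd6, and 2.00 for mt-Nd4. The step in this ratio came between mt-Co1 and mt-Co2 on one side and between mt-Nd4l and mt-Nd4 on the other.

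The 5 libraries were not low in the same pattern. In parental replicate 1 mt-Nd3 and mt-Nd4l still had 5361 and 1853 counts, while mt-Co2 had 461, mt-Atp8 184 and mt-Co3 565. In E6.1 replicate 1 mt-Atp8 had 3764 counts, or 7.59 per 100 mt-Cytb counts, although its neighbours mt-Co2 and mt-Atp6 had 116 and 154. In E6.2 replicate 3, by contrast, mt-Atp8 had 62 counts and mt-Co2 1463. mt-Nd4, just past the end of the stretch, was also lower in these 5 libraries than in the other 10, at 24.7 to 36.3 against 45.7 to 73.1 per 100 mt-Cytb counts. mt-Ts1, a tRNA gene on the opposite strand next to mt-Co1, had 3 counts in parental replicate 1, 2 in E6.1 replicate 1 and 1 in E6.2 replicate 3, below its counts in every other library.

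**Figure D2:**
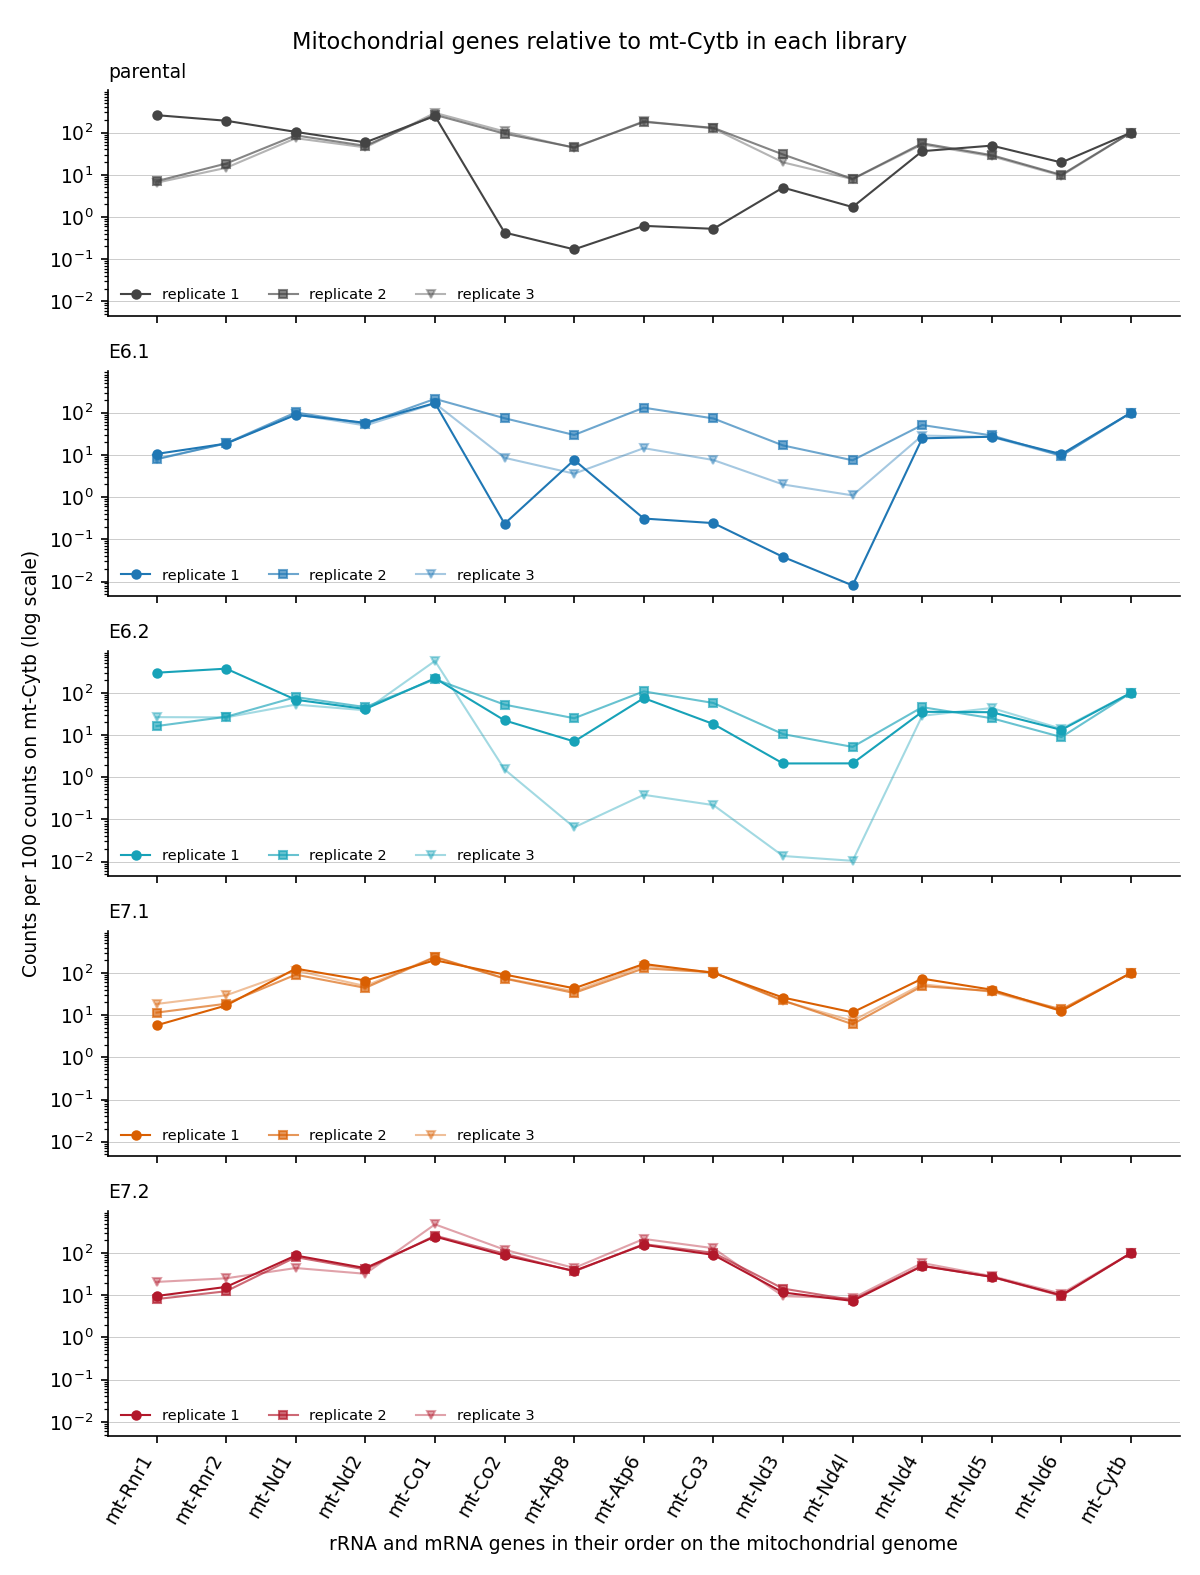
Counts per 100 counts on mt-Cytb (y axis, log scale) for the 2 rRNA and 13 mRNA genes in genome order (x axis), with 1 panel per line and 1 curve per library. Outside mt-Co2 to mt-Nd4l the curves of a line lie close together on this scale except at the rRNA genes, with smaller gaps such as those at mt-Nd4 in E6.1 and at mt-Co1 and mt-Nd1 in E7.2, and inside that stretch parental replicate 1, E6.1 replicate 1 and E6.2 replicate 3 drop by orders of magnitude, and no library of E7.1 or E7.2 does.

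The genes of this stretch were then compared in sequence with every other annotated mouse transcript, since the counting left out read pairs that aligned to several places. Of the 50-base windows of each gene, 100% were found elsewhere for mt-Co2, 99.5% for mt-Atp6, 99.9% for mt-Co3, 98.0% for mt-Nd3 and 98.8% for mt-Nd4l. The share was 62.2% for mt-Nd4, 51.1% for mt-Co1, 8.19% for mt-Nd2, 7.61% for mt-Nd5 and 1.04% for mt-Rnr2, and 0% for mt-Rnr1, mt-Nd1, mt-Nd6, mt-Cytb and mt-Atp8. The matching transcripts are annotated pseudogenes, and 7 of them lie together on chromosome 1, minus strand, within 4663 bases (24611535 to 24616197, GRCm38) in the same gene order as on the mitochondrial genome. Gm28661 matches mt-Co2 with 0 mismatches over 681 bases, Gm10925 matches mt-Atp6 with 0 over 678, Gm28437 matches mt-Co3 with 0 over 783 and Gm10222 matches mt-Nd4l with 0 over 294. Gm28438 differs from mt-Nd3 at 1 of 345 bases (T3C), and Gm28439 matches the first 876 bases of mt-Nd4, which is 1378 bases long, with 0 mismatches. Gm29216 covers bases 1054 to 1545 of mt-Co1 with 6 mismatches (T1056A, C1057T, A1059G, A1060G, C1062A and A1066T). Each substitution gives the base of the mitochondrial gene first, its position counted from 1 at the first base of that gene, and then the base of the nuclear copy.

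The sequences that carry this comparison are shown 5′ to 3′ on the strand of the gene, from GENCODE transcripts on GRCm38, first the start of mt-Co2, chrM:7013-7072, and that of its copy Gm28661, chr1:24615506-24615565, which do not differ in any base.
mt-Co2: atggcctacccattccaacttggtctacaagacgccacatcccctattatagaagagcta
Gm28661: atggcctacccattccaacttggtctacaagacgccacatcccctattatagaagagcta

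The start of mt-Nd3, chrM:9459-9518, and of Gm28438, chr1:24613060-24613119, hold the only base in capitals at which the pair differ.
mt-Nd3: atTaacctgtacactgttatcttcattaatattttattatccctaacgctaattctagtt
Gm28438: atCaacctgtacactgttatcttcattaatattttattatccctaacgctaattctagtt

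The place where the chromosome 1 copy begins inside mt-Co1, chrM:6381-6440, is shown with the start of Gm29216, chr1:24616138-24616197, with the differing bases in capitals; all 6 lie at the very start and the rest is the same in both.
mt-Co1: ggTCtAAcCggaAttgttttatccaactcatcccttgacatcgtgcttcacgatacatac
Gm29216: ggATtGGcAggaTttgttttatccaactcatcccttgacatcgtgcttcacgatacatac

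The end of mt-Atp8, chrM:7910-7969, holds no 50-base window found in another annotated transcript, and its last 43 bases, in capitals, are also the first 43 of mt-Atp6.
mt-Atp8: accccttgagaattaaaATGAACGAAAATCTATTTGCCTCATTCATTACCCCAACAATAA

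The start of mt-Cytb, chrM:14145-14204, is given as a gene with no shared window.
mt-Cytb: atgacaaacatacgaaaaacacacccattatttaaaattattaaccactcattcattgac

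The 5 genes with nearly all windows shared were all in the stretch. mt-Nd4 and mt-Co1, which flank it, had part of their windows shared, and the other genes outside had few or none. The exception was mt-Atp8, which was in the stretch and had 0% shared. Between the copies of mt-Co2 and mt-Atp6 on chromosome 1 lie 233 bases (24614652 to 24614884) with no annotated transcript, in the place that mt-Atp8 takes on the mitochondrial genome. The sequence of that gap was not used here. The counts on the 7 copies were small in every library, with sums of 694 to 3234 and a median of 1380. They were 1970, 962 and 1380 in the parental line, 694, 1187 and 2450 in E6.1, and 1656, 1727 and 2405 in E6.2. In E7.1 they were 1359, 847 and 1355, and in E7.2 2043, 960 and 3234. In E6.1 replicate 1 the copies of mt-Co3, mt-Atp6, mt-Nd3 and mt-Nd4l had 184, 288, 87 and 8 counts, more than the 120, 154, 19 and 4 on the mitochondrial genes themselves. The copies of mt-Co2, mt-Nd4 and mt-Co1 had 44, 40 and 43 counts there, fewer than the 116, 12237 and 83845 on those genes. The low libraries were not all alike in this. In parental replicate 1 mt-Nd3 had 5361 counts, above the highest count of its copy in any library (331). In E6.2 replicate 3 mt-Nd3 had 13 counts, below the lowest count of its copy (69). The part of shared sequence, or of any difference in alignment or counting between libraries, in the low counts was not tested.

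**Figure D3:**
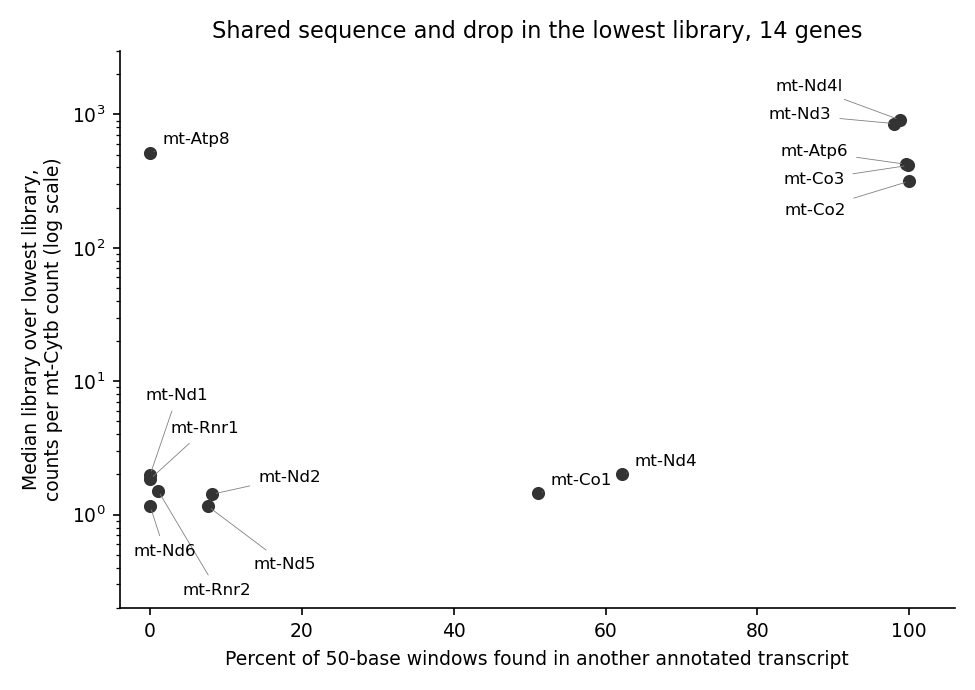
Percent of 50-base windows of a gene found in another annotated transcript (x axis) against the ratio of the median to the lowest library in counts per mt-Cytb count (y axis, log scale) for 14 mitochondrial genes, 1 point each. The 5 genes with at least 98.0% shared lie at ratios of 316 to 909, mt-Atp8 lies at 516 with 0% shared, and the other 8 genes lie at 2.00 or below.

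The mitochondrial rRNA genes set another pair of libraries apart. mt-Rnr1 was at 8428, 172 and 234 CPM in the parental line and at 17183, 784 and 762 in E6.2, and at 166 to 477 in E6.1, 214 to 561 in E7.1 and 228 to 1954 in E7.2. mt-Rnr2 was at 6216, 450 and 528 CPM in the parental line and at 21444, 1301 and 753 in E6.2, and at 291 to 1106 in E6.1, 346 to 899 in E7.1 and 350 to 2381 in E7.2. Parental replicate 1 and E6.2 replicate 1 were thus far above the other replicates of their lines, and the 2 genes made up 41.8% and 51.2% of the mitochondrial counts there, against 1.90% to 5.84% in the other 13 libraries.

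Noncoding RNAs from the nucleus that carry no long poly(A) tail were high in the same libraries. Rn7sk, the 7SK RNA, was at 115 CPM in parental replicate 1 and 374 CPM in E6.2 replicate 1, against 0.455 to 5.17 in the others. Rpph1, the RNA of ribonuclease P, was at 10.6 and 22.5 CPM against 0.0268 to 0.514, and Rmrp, the RNA of ribonuclease MRP, at 5.99 and 5.67 CPM against 0 to 0.272. The part of this in the mitochondrial values was not tested.

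mt-Co1 stood out in single libraries as well. It took 63.1% of the mitochondrial counts in E6.2 replicate 3 and 36.04% in E7.2 replicate 3, with a median of 25.1% and a lowest value of 16.8% (E6.2 replicate 1). These percentages also move with the other genes. The stretch was nearly absent in E6.2 replicate 3, and rRNA held 51.2% of the mitochondrial counts in E6.2 replicate 1. The counts of mt-Co1 were therefore set against those of mt-Nd1, a gene with no shared window that lies outside the stretch. The ratio was 2.38, 3.07 and 3.99 in the parental line, 1.90, 2.09 and 1.81 in E6.1, and 1.58, 2.61 and 2.11 in E7.1. It was 3.23, 2.66 and 10.8 in E6.2 and 2.82, 3.23 and 10.8 in E7.2. In each of these clones 1 library thus lay far above its replicates. However, mt-Nd1 was itself low there, at 52.6 (E6.2) and 44.1 (E7.2) per 100 mt-Cytb counts, against a median of 87.4. On that scale mt-Co1 was at 221, 210 and 569 in E6.2 and 246, 258 and 478 in E7.2. Both libraries stayed above their replicates, but by less than in the ratio to mt-Nd1. All 3 E6.1 ratios to mt-Nd1 lay below the parental ratios, and the other 3 clones overlapped them. E6.2 replicate 3 and E7.2 replicate 3 were unlike each other in the stretch next to mt-Co1, with 0.262% and 41.3% of mRNA counts on the 6 genes.

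The tRNA genes, of 59 to 75 bases and so shorter than most RNA fragments, took between 0.00142% and 0.00612% of all counts. Of the 22, 15 passed the filter on low counts, and mt-Tf, mt-Tv, mt-Ti, mt-Tq, mt-Td, mt-Tg and mt-Tr did not. mt-Tf and mt-Tg, for phenylalanine and glycine, had 0 counts in every library, which allows up to 0.0751 to 0.118 CPM per library (3 counts; counting error only). The largest counts were on mt-Tp (203 to 649) and mt-Tl1 (95 to 498), for proline and leucine. mt-Ts1 and mt-Tk, which lie beside or within the stretch, ranged from 1 to 426 and from 0 to 33 counts, and mt-Tk was at 0 in parental replicate 1, E6.1 replicates 1 and 3 and E6.2 replicate 3. Whether these counts came from tRNA or from uncut precursor RNA was not tested, and 9 of the 37 genes (mt-Nd6 and 8 tRNA genes) are on the reverse strand, where counts made without strand cannot be told apart from RNA of the other strand.

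Replicates of a line differed more on the mitochondrial genes than on most genes. The SD within lines of log2(CPM + 0.5) had a median of 0.73 over the 30 mitochondrial genes that passed the filter and 0.92 over the 13 mRNA genes, against 0.26 over all 13904 genes tested. The median was 0.27 over the 329 nuclear genes at or above the level of mt-Nd6. All 30 genes were above the median of all genes, from 0.32 for mt-Ty to 3.88 for mt-Atp6, the largest of all genes tested. Outside the stretch mt-Cytb had 0.69, and the rRNA genes mt-Rnr1 and mt-Rnr2 had 2.00 and 1.71. The genes are read from the same 15 libraries and are not independent of each other.

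**Figure D4:**
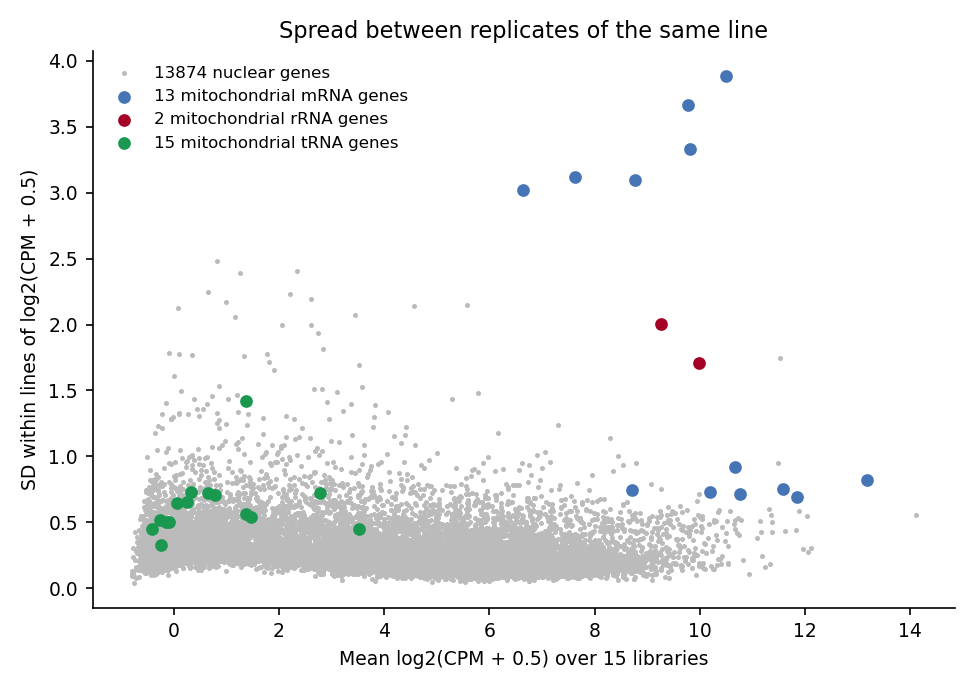
SD within lines of log2(CPM + 0.5) (y axis) against the mean of the same measure over the 15 libraries (x axis) for the genes tested, with nuclear genes in grey and mitochondrial mRNA, rRNA and tRNA genes in colour. The 6 highest points are the mRNA genes from mt-Co2 to mt-Nd4l, up to 3.88 for mt-Atp6, and the nuclear genes have a median near 0.26.

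Each clone was then compared with the parental line to ask whether any mitochondrial gene changed with the Foxp1 edit, by edgeR's quasi-likelihood test over all 13904 genes with Benjamini-Hochberg adjustment and a threshold of 0.05. In E6.1, 0 of the 30 genes passed (0.324% of all genes did), and likewise 0 in E6.2 (1.17%). In the E7 clones 0 passed as well, beside 1.22% of all genes for E7.1 and 0.295% for E7.2. DESeq2 also called 0 in each clone, where it called 1.11%, 2.86%, 8.32% and 1.83% of all genes. At an unadjusted p under 0.05 by edgeR there was 1 mitochondrial gene in each clone, against 6.71%, 13.1%, 20% and 13.3% of all genes. These were mt-Rnr1, lower in E6.1 (adjusted p = 0.737, edgeR), mt-Tc, the cysteine tRNA gene, lower in E6.2 (adjusted p = 0.335, edgeR), mt-Rnr1, lower in E7.1 (adjusted p = 0.251, edgeR), and mt-Co1, higher in E7.2 (adjusted p = 0.343, edgeR). All 4 comparisons share the 3 parental libraries.

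The estimates of the 13 mRNA genes had wide errors. Their median log2 fold change was −0.21 in E6.1 (range −1.09 to 0.46), 0.19 in E6.2 (−1.36 to 0.65), 0.23 for E7.1 (−0.36 to 0.56) and 1.15 for E7.2 (0.30 to 1.64), beside medians over all genes of −0.00, 0.06, −0.02 and 0.00. In E7.2 all 13 estimates were above 0, against 3 in E6.1, 7 in E6.2 and 10 in E7.1, and standard errors ran from 0.49 to 1.83. The 13 are not independent, and E7.2 replicate 3 held 10.4% mitochondrial counts. In CPM, mt-Co1 was 8048, 6422 and 10581 in the parental line and 14393, 7254 and 45202 in E7.2, which overlap (log2 fold change 1.42, SE 0.59, adjusted p = 0.343, edgeR). mt-Cytb was 3257, 2440 and 3609 CPM in the parental line and 5847, 2813 and 9458 in E7.2 (0.96, SE 0.49, adjusted p = 0.411, edgeR). In both genes E7.2 replicate 2 lay within the parental range.

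The rRNA estimates turned on single libraries. For mt-Rnr1 the log2 fold changes were −3.17 (SE 1.47) in E6.1, 1.08 (SE 1.37) in E6.2, −3.15 (SE 1.47) for E7.1 and −1.69 (SE 1.39) for E7.2. Without parental replicate 1 they became 0.69 in E6.1, 0.73 in E7.1, 2.19 in E7.2, and without E6.2 replicate 1 the value for E6.2 became −1.94. mt-Rnr2 behaved in the same way, from −1.70 to 0.59 in E6.1, −1.92 to 0.39 in E7.1, −0.98 to 1.33 in E7.2, and, without E6.2 replicate 1, from 1.71 to −1.24 in E6.2. For mt-Co3, inside the stretch, the estimates were −1.09 (SE 1.76) in E6.1, −1.01 (SE 1.76) in E6.2, 0.22 (SE 1.74) for E7.1 and 1.41 (SE 1.77) for E7.2, with adjusted p-values of 0.987, 0.820, 0.959 and 0.728 (edgeR).

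**Figure D5:**
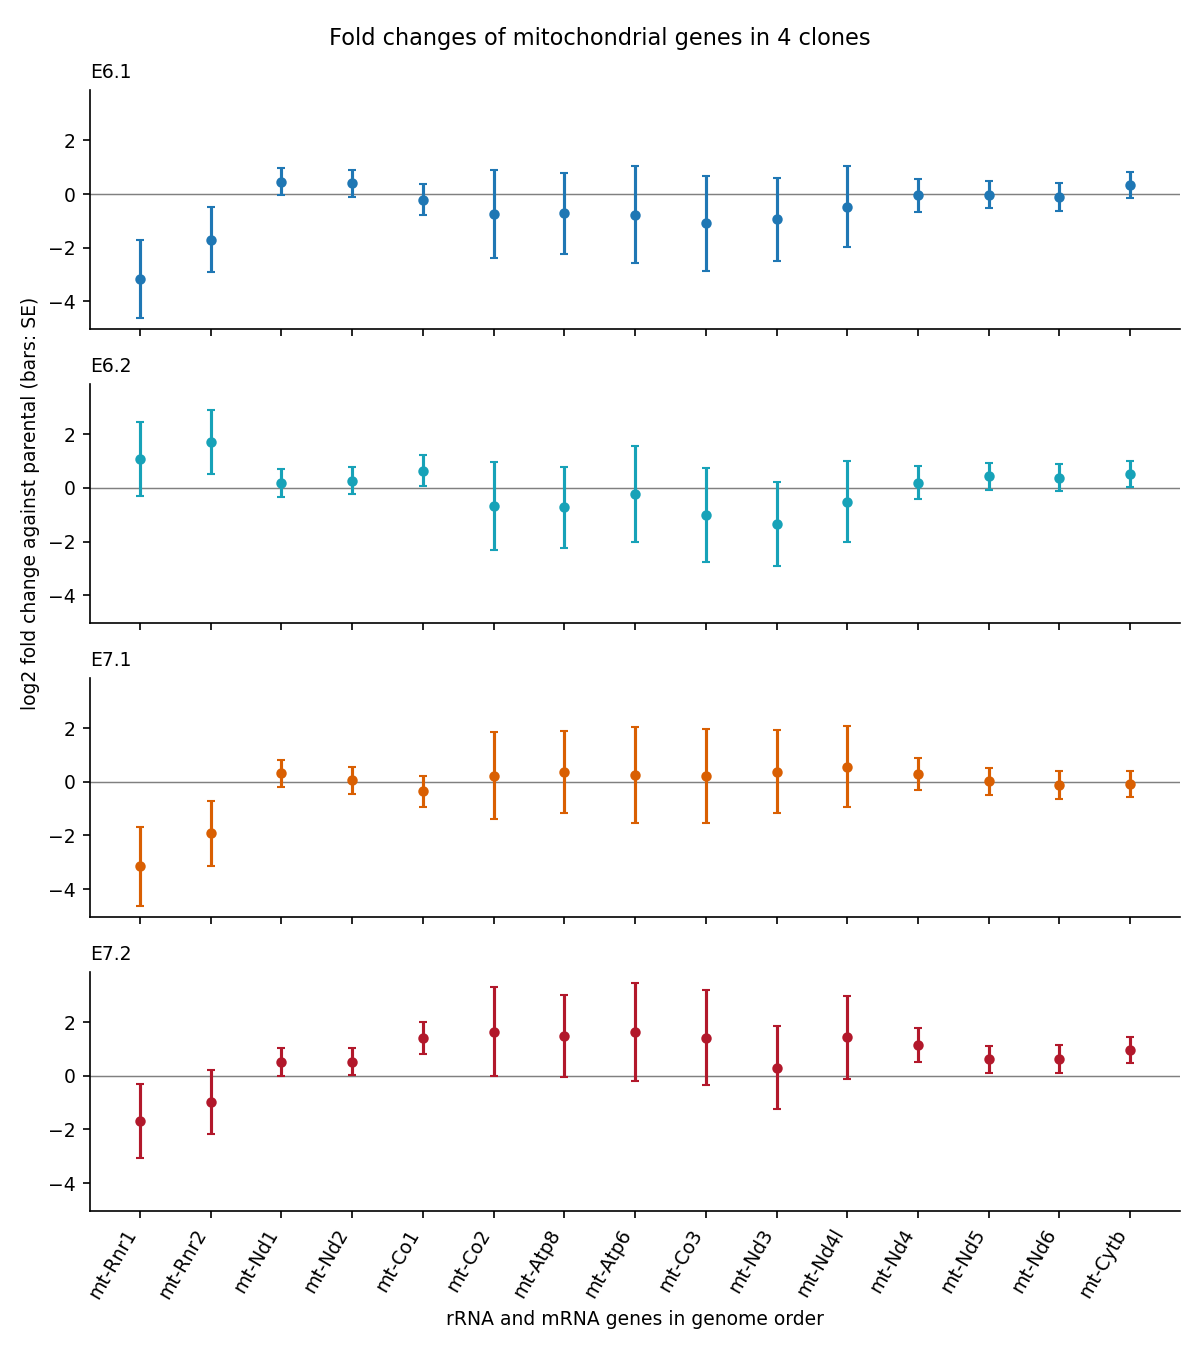
log2 fold change of each clone against the parental line (y axis, points) with its standard error (bars) for the 2 rRNA and 13 mRNA genes in genome order (x axis), 1 panel per clone. Bars are longest from mt-Co2 to mt-Nd4l and at the rRNA genes, and no gene passed an adjusted p of 0.05 in any clone; every mRNA point of E7.2 lies above 0.

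Counted by whether the 3 libraries of a clone lay all above or all below the 3 parental libraries in CPM, 0 of the 30 genes were separate in E6.1 (11.3% of all genes were higher in this way and 11.2% lower), in E6.2 (6.13% and 8.61%) or in E7.1 (16.4% and 15.6%). In E7.2 only mt-Tl2, a leucine tRNA gene, was lower in every library, at 0.502, 0.213 and 0.577 CPM against 2.81, 0.614 and 0.699, while 13.3% of all genes were lower and 10.8% higher (edgeR log2 fold change −1.67, SE 0.81, adjusted p = 0.389).

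Both clones targeted in exon 7 were next set against both targeted in exon 6, a comparison in which 12.1% of all genes passed. Again 0 of the 30 mitochondrial genes did, with 0 at an unadjusted p under 0.05 (30.3% of all genes) and 0 by DESeq2 (19.3% of all genes), and the smallest adjusted p was 0.254 (edgeR). The median log2 fold change of the 13 mRNA genes was 0.65 (range −0.05 to 1.87), with 12 of 13 above 0, against −0.03 over all genes. The E7 libraries hold none of the 5 that were low from mt-Co2 to mt-Nd4l, and the E6 libraries hold 4 of them.

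Pairs of clones were compared in the same fit, and 0 mitochondrial genes passed in any of the 6 pairs. Of all genes, 1.24% passed in E6.2 against E6.1, 3.24% in E7.1 against E6.1, 0.352% in E7.2 against E6.1, 16.9% in E7.1 against E6.2, 2.24% in E7.2 against E6.2 and 0.59% in E7.2 against E7.1. In the same order, the unadjusted p was under 0.05 for 2, 0, 1, 2, 1 and 1 mitochondrial genes, against 12.9%, 22.3%, 11.6%, 34.1%, 19.1% and 13.3% of all genes. The smallest adjusted p-values were those of mt-Rnr2 and mt-Rnr1 in E7.1 against E6.2 (0.0679 and 0.0715, edgeR), with log2 fold changes of −3.62 (SE 1.30) and −4.23 (SE 1.54). Both passed there with no filter on low counts (8.77% of all genes passed), without parental replicate 1 (17.8%) and without E6.2 replicate 3 (25.7%). Neither passed without the 2 libraries high in mitochondrial rRNA (11.9% of all genes passed) or without E6.2 replicate 1 alone. E6.2 replicate 1 was at 17183 CPM for mt-Rnr1 and 21444 CPM for mt-Rnr2. Its replicates were at 784 and 762 CPM for mt-Rnr1, and at 1301 and 753 CPM for mt-Rnr2. DESeq2 called 2 genes over the 6 pairs, mt-Rnr2 lower in E7.1 than in E6.2 (adjusted p = 0.0177, with 24.1% of all genes called) and mt-Co1 higher in E7.2 than in E7.1 (adjusted p = 0.0408, with 2.06%). By edgeR mt-Co1 was 1.77 higher on the log2 scale in E7.2 than in E7.1 (SE 0.60, adjusted p = 0.250). It was at 14393, 7254 and 45202 CPM in E7.2 and at 7789, 4421 and 7340 CPM in E7.1, which overlap.

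In the edgeR test among all 5 lines 0 mitochondrial genes passed (6.28% of all genes), and 3 had an unadjusted p under 0.05 (27.8%), mt-Rnr1, mt-Rnr2 and mt-Co1. DESeq2 called mt-Rnr2 and mt-Co1 (22.5% of all genes), mt-Rnr1 and mt-Rnr2 passed with no filter on low counts (6.53%), and mt-Rnr1 passed without parental replicate 1 (9.55%).

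Some genes were separate between 2 clones in every library. mt-Rnr1 and mt-Co1 were higher in E6.2 than in E6.1 (7.34% of all genes were higher and 10.2% lower) and than in E7.1 (15.2% of all genes were lower in E7.1 and 16.5% higher). For mt-Rnr1 this holds for the 2 E6.2 libraries that were not high in rRNA, at 784 and 762 CPM against at most 477 in E6.1 and 561 in E7.1. For mt-Co1 the E6.2 libraries were at 12707, 10125 and 16352 CPM, against 2660, 9164 and 9776 in E6.1 and 7789, 4421 and 7340 in E7.1. mt-Co2 and mt-Co3 were higher in E7.2 than in E6.2 (7.62% of all genes were higher and 7.59% lower), where E6.2 replicates 1 and 3 were low on both. The remaining genes were tRNA genes with few counts. mt-Tc was higher in E7.1 than in E6.2, and mt-Ty, the tyrosine tRNA gene, was higher in E7.1 than in E6.1 (20.9% of all genes were higher and 22.3% lower) and lower in E7.2 than in E7.1 (12.7% of all genes were lower and 12.4% higher). Between E7.2 and E6.1 there was no such gene (13.1% of all genes were higher and 16.6% lower).

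Nuclear genes that act on or with the mitochondrial transcripts were looked up in lists. Over 22 genes for transcription and replication of mitochondrial DNA, 36 for mitochondrial RNA processing, 10 regulators of mitochondrial biogenesis that passed the filter, 36, 9, 11 and 15 nuclear subunits of complexes I, III and IV and the ATP synthase, and 8 nuclear copies of mitochondrial sequence, 1 of the 147 genes passed in any clone, while 1.22% of all genes passed in E7.1 and 0.295% to 1.17% in the other clones. This was Primpol, a primase and polymerase that works in nuclear and mitochondrial DNA replication, which fell from 37.6 ± 5.86 CPM in the parental line to 19.1 ± 5.01 CPM in E7.1 (SD, n = 3 each; log2 fold change −0.98, SE 0.20, adjusted p = 0.0358, edgeR). This call was lost on leaving out any one of 9 libraries (parental replicates 2 and 3, replicates 1 and 3 of E6.1 and of E7.1, E6.2 replicate 2, and replicates 1 and 2 of E7.2), with adjusted p-values of 0.0516 to 0.188, and in a fit of the 6 libraries compared alone (0.0565, edgeR). Tfam, which packages mitochondrial DNA and starts its transcription, was at 116 ± 13.8 CPM in the parental line and 110 ± 12.6 CPM in E7.1 (log2 fold change −0.07, SE 0.21, adjusted p = 0.885, edgeR). Lrpprc, which stabilizes mitochondrial mRNA, was at 99.9 ± 1.83 and 125 ± 20.1 CPM (0.33, SE 0.13, adjusted p = 0.192, edgeR), and Grsf1, which binds G-rich mitochondrial RNA, at 229 ± 15.4 and 204 ± 7.65 CPM (−0.17, SE 0.19, adjusted p = 0.675, edgeR).

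The nuclear subunits that partner with the mitochondrially encoded ones had positive medians in all 4 clones, although none of them passed the test. Their median log2 fold change in E7.1 was 0.29 for complex I (31 of 36 above 0), 0.43 for complex III (8 of 9), 0.42 for complex IV (11 of 11) and 0.41 for the ATP synthase (12 of 15), against −0.02 over all genes. In the same order of complexes the medians were 0.11, 0.12, 0.19 and 0.10 in E6.1, where 27, 7, 9 and 12 members were above 0. In E6.2 they were 0.09, 0.15, 0.12 and 0.07, with 23, 6, 8 and 9 above 0. In E7.2 they were 0.20, 0.15, 0.28 and 0.17, with 28, 7, 10 and 14 above 0. Over all genes the median was −0.00 in E6.1, 0.06 in E6.2 and 0.00 in E7.2. Complex I and the ATP synthase in E6.2 thus lay close to all genes. Whether the clones differed in these medians was not tested, and all share the parental libraries. In E7.1 the unadjusted p was under 0.05 for 14, 4, 5 and 7 members, all higher, against 20% of all genes in either direction, and the smallest adjusted p-values were 0.0676, 0.0596, 0.109 and 0.0559 (edgeR). Atp5b, the catalytic subunit of the ATP synthase, was at 1639 ± 79.3 CPM in the parental line and 2213 ± 99.99 CPM in E7.1 (log2 fold change 0.43, SE 0.21, adjusted p = 0.258, edgeR). Ndufs1, the largest complex I subunit, was at 201 ± 5.27 and 242 ± 21.2 CPM (0.27, SE 0.15, adjusted p = 0.328), Uqcrc2, a core subunit of complex III, at 386 ± 54.4 and 427 ± 21.6 CPM (0.15, SE 0.19, adjusted p = 0.714), and Cox4i1, a complex IV subunit, at 239 ± 14.7 and 270 ± 28.02 CPM (0.18, SE 0.25, adjusted p = 0.735, all edgeR).

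These counts depended on which libraries were in the fit. Without parental replicate 1, 25 of the 147 nuclear genes passed in E7.1, or 17%, against 6.81% of all genes, with 22 higher and 3 lower. They included 6 of 36 complex I, 4 of 9 complex III, 5 of 11 complex IV and 3 of 15 ATP synthase subunits, among them Atp5k (log2 fold change 1.39, adjusted p = 0.00928, edgeR) and Uqcr10 (1.12, adjusted p = 0.00942, edgeR). Without E6.2 replicate 3, which enters that comparison only through the filter, the scaling and the shared estimate of spread, 20 were higher and 1 was lower in E7.1 (7.05% of all genes passed). Over all 4 clones 22 genes passed then, of which 18 also passed without parental replicate 1. Of all genes, 0.481% passed in E6.1, 1.16% in E6.2 and 1.33% in E7.2 in that fit. Without the 2 libraries that were high in mitochondrial rRNA 29 passed, all in E7.1 (8.83% of all genes). Leaving out the 5 that were low from mt-Co2 to mt-Nd4l keeps 1 library each of E6.1 and E6.2, so only log2 fold changes are given. The genes named here were picked by their test values in E7.2 in this fit, so large changes there follow from that choice. In E7.2 the log2 fold changes were 1.03 for Atp5k, 1.025 for Atp5j2, 0.98 for Ndufv3, 0.94 for Cox6b1 and 0.90 for Ndufa3. Uqcr11 was at 0.80, Mrpl12 at 0.62 and Nsun3 at −0.64. In E7.1 the same genes other than Nsun3 ran from 0.82 (Mrpl12) to 1.38 (Atp5k). The count was 6 without E7.2 replicate 3 and 2 without E6.2 replicate 1. Shares over all genes are not given for those 2 fits. In E7.1 that share was 1.22% in the main fit and 6.81% to 8.83% in the fits above for which it is given. The counts are therefore not read as a result about the lists. Of the 9 libraries whose removal ended the Primpol call, 8 left a count of 0, and E6.2 replicate 2 left 1 gene, in E6.2. In E7.1 the median log2 fold change of the 13 mitochondrial mRNA genes was 0.23, with standard errors of 0.49 to 1.79, and its difference from the nuclear medians was not tested.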

How the data were processed

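RNA from 15 A20 libraries was sequenced as read pairs. The authors aligned the reads with HISAT, handled the files with SAMtools and deposited raw fragment counts per gene from featureCounts 1.5.0. The build was mm10 (GRCm38) per the labels, and the file headers name an annotation with 92 spike-ins, which had 0 counts. The counting command set no strand option and no option for multiple alignments, so pairs with several alignments, or over more than 1 gene, did not count. Symbols were matched by identifier (40254 of 41388 genes). CPM used TMM-scaled library sizes, percentages the summed gene counts, and TPM the gene lengths of the tables. Genes were filtered with filterByExpr, scaled by TMM and fitted over all 5 lines in 1 model (glmQLFit, edgeR 4.0.16, R 4.3.3) with Benjamini-Hochberg adjustment over the 13904 genes tested. For edgeR the standard error was taken as the absolute log2 fold change over the square root of the F statistic of the test. DESeq2 1.42.0, no filter on low counts, other scaling, a replicate block and leaving out each library were the alternatives. The 50-base windows of each mitochondrial gene were searched in all annotated transcripts. The rRNA and mRNA genes were named in full, tRNA genes by counts or where they passed the filter, and list genes where called, or otherwise from the most abundant. Atp5k, Uqcr10 and the genes named for the fit without the 5 libraries low from mt-Co2 to mt-Nd4l were named after their values were seen. The members and lists were chosen with earlier results of these data known. On simulated counts, the fit recovered 48 of 100 genes changed 2-fold and 86 of 100 changed 4-fold in E7.1 against parental (13756 genes). In that comparison 6 unchanged genes were also called. The changed genes were drawn at random from tested genes above a minimum mean count, and not from the mitochondrial genes as a set. The median SD within lines was 0.26 over all genes tested and 0.92 over the 13 mitochondrial mRNA genes. Recovery of changes in the mitochondrial genes was therefore not measured.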

Additional observations from a re-analysis of the deposited data

How the results depend on the processing

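The count of mitochondrial genes called was 0 in each clone against the parental line and between E7 and E6 clones under every alternative run. Over the 6 pairs of clones it was 2 with no filter on low counts (mt-Rnr1 and mt-Rnr2 in E7.1 against E6.2), 2 with DESeq2, and 0 to 2 on leaving out each library, with 2 without parental replicate 1 and 2 without E6.2 replicate 3. Among the 5 lines it was 2 with no filter, 2 with DESeq2 and 0 to 1 on leaving out each library, with mt-Rnr1 called without parental replicate 1. The count of nuclear list genes was 0 to 25 on leaving out each library and 29 without the 2 libraries high in rRNA. Of all genes in E7.1, 1.22% passed in the main fit, 6.81% without parental replicate 1 and 8.83% without the 2 libraries. Leaving out these 2, or the 5 libraries low from mt-Co2 to mt-Nd4l, was chosen after seeing the data. The fit without the 5 leaves E6.1 and E6.2 with 1 library each, assumed to vary like the other lines.

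Signs changed for single genes. On leaving out each library, log2 fold changes ran, with the clones in numerical order, from −3.72 to 0.69, −1.94 to 4.99, −3.74 to 0.73 and −2.86 to 2.19 for mt-Rnr1, and from −2.19 to 0.59, −1.24 to 4.05, −2.40 to 0.39 and −1.88 to 1.33 for mt-Rnr2. Without the 5 libraries mt-Rnr1 was 0.74, 0.72 and 2.18 and mt-Rnr2 0.73, 0.38 and 1.32 in E6.1 and both E7 clones, and without the 2 libraries 0.69, 0.73 and 2.19, and 0.59, 0.39 and 1.33. The small values of mt-Co1 in E6.1 (−0.50 to 0.18, and 0.11 without the 5 libraries), mt-Cytb in E6.1 (−0.074 to 0.72) and E7.1 (−0.33 to 0.17) and mt-Co3 in E7.1 (−0.34 to 0.92, −0.36 without the 5 and −0.34 without the 2 libraries) also changed sign. The log2 ratio of the mitochondrial share to the parental share ran from −0.77 to 0.06 in E6.1, −0.11 to 0.71 in E6.2, −0.42 to 0.11 in E7.1 and 0.34 to 1.22 in E7.2, and moved by less than the SD within lines of the log2 share (0.82). The cause of these changes was not tested.

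With the replicate number as a block, 0 mitochondrial genes were called in any comparison and 1 nuclear list gene. Deviations of clone libraries correlated with those of the parental library of the same number at r from −0.124 to 0.213, so the numbers were not taken to pair the samples. Of the 22 tRNA genes 7 were too low to test, and 3 libraries per line limit every comparison.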
